A study of Mus musculus with 6 samples.

Results

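The sarcoplasmic reticulum calcium cycling genes are a list of 10 genes for calcium release, uptake, storage, and exchange: Ryr2, Itpr1, Itpr2, Atp2a2, Pln, Sln, Casq1, Casq2, Slc8a1, and Jph2. They were listed by name, with earlier results of these data known. Of these, 9 were found among the 21269 genes of the expression table, and Sln was not analysed here. The cells were HL-1, a cultured line derived from mouse atrial cardiomyocytes, seeded 24 hours before transfection with 50 nM of an LNA gapmer and collected 48 hours after it. Gapmers are short strands of DNA flanked by locked nucleic acid, which lead RNase H to the RNA they pair with. LNA Control carried the control gapmer and LNA Malat1 the gapmer against Malat1, a nuclear long noncoding RNA, with 3 RNA-seq libraries in each group. All 6 libraries came from 1 line in culture, grown with serum and norepinephrine. Nothing in the labels says whether the replicates were separate cultures, so the p-values measure only the spread between these libraries, which may be technical.

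In a heart muscle cell, an incoming calcium current opens ryanodine receptors on the sarcoplasmic reticulum, the internal calcium store, and the released calcium starts contraction. The SERCA pump then returns calcium to the store under the brake of the small membrane protein phospholamban, the sodium-calcium exchanger moves the rest out of the cell, and calsequestrin holds calcium inside the store. Inositol trisphosphate receptors form another release route, prominent in atrial cells, that opens on hormonal signals through phospholipase C.

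Malat1 itself had 5051, 5197, and 4369 normalized counts with LNA Control and 2833, 2792, and 2732 with LNA Malat1, replicates 1 to 3 in turn, so that 57.2% of its level in LNA Control was left (limma adjusted p = 7.5e-06). A normalized count is a gene's read count divided by a factor for its library. The libraries held between 4512253 and 5592464 reads on genes, as recovered from the rounding of the values. LNA Malat1 replicates 1 and 3 differed by less than the sampling noise over all genes compared (chi-square 0.95 per gene) and were counted as 1 sample in each mean ± SD, so n = 2 there, although they did differ among the most abundant genes (1.11 per gene). LNA Malat1 replicates 1 and 2 were also near the sampling noise over all genes (1.01 per gene), though not among the most abundant (1.66 per gene). Replicates 2 and 3 of that group gave 1.16 per gene over all genes. The n of 2 therefore does not show that replicate 2 was a separate sample. The LNA Control libraries lay further apart (1.77 to 4.18 per gene), replicates 1 and 3 the furthest. Of the atrial cardiomyocyte markers looked for, 7 of 8 were found, with a summed normalized count of 1342 to 1376 per library in LNA Control and 1389 to 1457 in LNA Malat1. The troponin gene Tnnt2 and the actin gene Actc1 made up most of it. Myl7 was low, with 24, 18, and 30 (LNA Control) and 32, 20, and 25 (LNA Malat1), as was Myl4, with 30, 39, and 37 against 49, 47, and 45. The myosin gene Myh6, with 0 to 7 in every library, and the connexin gene Gja5, with 0 to 4, were near 0, and Nppa was not analysed here. The sum thus does not by itself show an atrial identity.

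Across the calcium cycling genes, knockdown libraries held less RNA for the store's hormone-gated channel Itpr1 and for the pump brake Pln, and more for the calsequestrin Casq1, which was present at few reads. Itpr1 fell to 80.9% and Pln to 84.2% of LNA Control, and Casq1 rose to 280.3%. The ryanodine receptor Ryr2, the pump Atp2a2, the exchanger Slc8a1, the channel Itpr2, and the scaffold Jph2 did not pass the test. In a bulk sample, fewer cells that use a gene and less of its RNA per cell cannot be told apart.

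**Figure D1:**
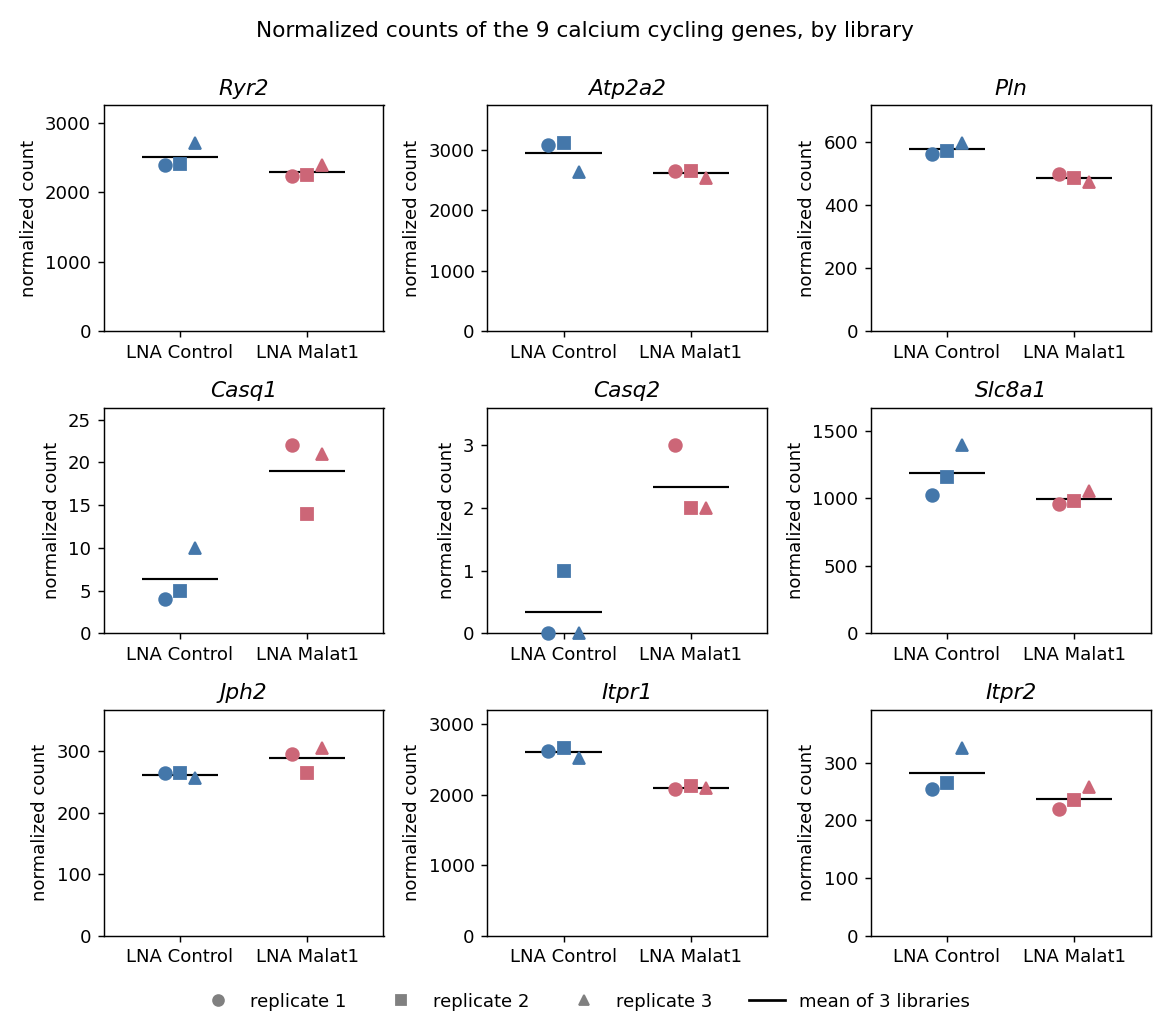
Normalized count (vertical axes, each from 0) of the 9 calcium cycling genes in the 3 LNA Control and the 3 LNA Malat1 libraries, with 1 point per library, a marker shape per replicate, and a line at the mean of the 3 libraries. The groups are apart without overlap for Itpr1, Pln, Casq1, Casq2, and Ryr2, although Ryr2 did not pass the test and Casq2 was too low to be tested.

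The test was limma on log2(normalized count + 1) over 15650 genes, those whose normalized counts averaged 5 or more, which included 8 of the 10 listed genes. Unless stated otherwise, each fit took the 3 libraries of a group as separate samples. A gene passed when its adjusted p was 0.05 or less, and it was called when its fold change was also at least 1.5. Of the 8, Casq1 was called higher (8.00% of all genes tested were) and 0 were called lower (2.92% of all genes). At the adjusted p alone, 1 was higher (14.3% of all genes) and 2 were lower, Itpr1 and Pln (14.0% of all genes). At an unadjusted p of at most 0.05, 5 were lower (19.2% of all genes), of which 0 reached 1.5-fold (3.31% of all genes were lower at both), and limma's voom weights on recovered reads also called 0 lower. The median log2 fold change (log2FC) of the 8 genes was -0.20, beside 0.02 for all genes tested. By level, the median of all genes ran from 0.43 at averages of 5 to below 10 down to -0.04 at 1000 and above. In 3 of the 8 the highest LNA Malat1 library was under the lowest LNA Control library (20.8% of all genes), in 1 the reverse held (20.5%), and in 4 the groups overlapped.

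**Figure D2:**
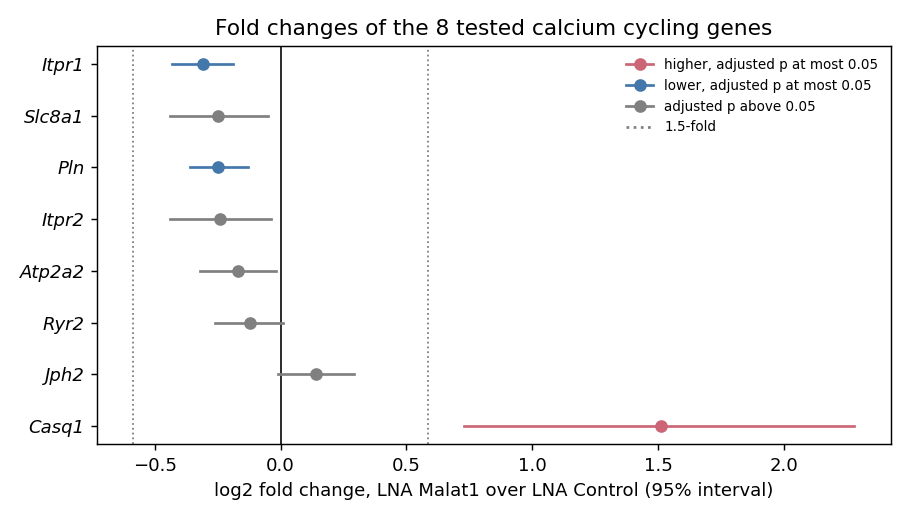
Log2 fold change of LNA Malat1 over LNA Control (horizontal axis) with its 95% interval from limma for the 8 tested genes, with dotted lines at 1.5-fold in either direction. Itpr1 (-0.31) and Pln (-0.25) lie below 0 and inside the dotted lines, Casq1 (1.51) lies beyond them, and the intervals of Slc8a1, Itpr2, and Atp2a2 stop short of 0 although their adjusted p was above 0.05.

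The release channels come first. Ryr2 encodes the cardiac ryanodine receptor, the channel that lets calcium out of the store at each beat. It lies on chromosome 13 (mm10, minus strand, positions 11553102 to 12106945). Its normalized counts were 2393, 2399, and 2706 with LNA Control and 2237, 2245, and 2387 with LNA Malat1. The LNA Malat1 libraries were all under the lowest LNA Control library, the nearest pair being only 2387 and 2393. It averaged 2499 ± 179.0 (SD, n = 3) against 2278.5 ± 47.4 (SD, n = 2). The log2 fold change was -0.12 (SE 0.06, 95% interval -0.26 to 0.01, limma adjusted p = 0.17), so a fall of up to 0.26 on the log2 scale is within the interval.

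Itpr1 encodes the type 1 inositol trisphosphate receptor and lies on chromosome 6 (plus strand, positions 108213096 to 108551109). It stood at 2613, 2666, and 2526 (LNA Control) and at 2085, 2123, and 2088 (LNA Malat1). Both groups were tight, and the lowest LNA Control library stood well above the highest LNA Malat1 library. The mean was 2602 ± 70.7 (SD, n = 3) against 2105 ± 25.8 (SD, n = 2), and the log2 fold change was -0.31 (SE 0.05, 95% interval -0.43 to -0.19, limma adjusted p = 0.001, or 0.013 with LNA Malat1 replicates 1 and 3 as 1 sample). Among the genes at its level, those averaging 1000 or more, 20.9% were lower at the adjusted p alone. Its exons share under 1% of their bases with each of 2 genes on the opposite strand, both with at most 6 normalized counts in any library.

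Itpr2 encodes the type 2 receptor, the form usually named for atrial cardiomyocytes, and it was far less abundant in these cells. Its normalized counts were 254, 264, and 326 with LNA Control and 219, 236, and 257 with LNA Malat1. The groups overlapped, since LNA Malat1 replicate 3 lay above LNA Control replicate 1, and replicate 3 was the highest of its group on both sides. The log2 fold change was -0.24 (SE 0.09, 95% interval -0.44 to -0.04, limma adjusted p = 0.076). Without LNA Control replicate 1 it was -0.31 and passed the test (limma adjusted p = 0.015), and without LNA Control replicate 3 it was -0.13 (limma adjusted p = 0.25). Without LNA Malat1 replicate 1 it was -0.18 (limma adjusted p = 0.27), so the value depended on single libraries of both groups. With median-of-ratios scaling it also passed (log2FC -0.26, limma adjusted p = 0.047).

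The pump and its brake were next. Atp2a2 encodes SERCA2, the calcium pump of the store (chromosome 5, minus strand, positions 122453513 to 122502225), and 1.4% of its exonic bases are shared with Gm43361 on the opposite strand. It stood at 3073, 3109, and 2634 (LNA Control) and at 2649, 2639, and 2535 (LNA Malat1). LNA Control replicate 3 lay within the range of LNA Malat1 and the other LNA Control libraries lay above it. The log2 fold change was -0.17 (SE 0.07, 95% interval -0.32 to -0.02, limma adjusted p = 0.089). Without LNA Control replicate 3 it was -0.25 and passed the test (limma adjusted p = 0.0011). With the replicate number as a block in the fit it was -0.17 and passed too (limma adjusted p = 0.039).

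Pln encodes phospholamban, which inhibits SERCA2 until it is phosphorylated. It lies on the plus strand of chromosome 10 and stood at 563, 572, and 597 (LNA Control) and at 498, 487, and 473 (LNA Malat1). Each LNA Malat1 library lay below each LNA Control library. The mean was 577 ± 17.6 (SD, n = 3) against 486.2 ± 1.06 (SD, n = 2), the latter after averaging replicates 1 and 3, which were the highest and the lowest of their group. Over the 3 LNA Malat1 libraries the coefficient of variation was 2.58%. The log2FC was -0.25 (SE 0.05, 95% interval -0.36 to -0.13, limma adjusted p = 0.0037) with 3 libraries in each group, and the limma adjusted p was 0.017 with replicates 1 and 3 as 1 sample. At its level (averages from 500 to below 1000) 23.5% of genes were lower at the adjusted p alone. Genes on the opposite strand cover part of its exons: Gm47644 shares 59.6% of their bases and Cep85l 5.1%. Both moved the other way. Gm47644 stood at 21, 22, and 41 (LNA Control) and at 46, 52, and 49 (LNA Malat1) (log2FC 0.85, limma adjusted p = 0.017), and Cep85l had 350, 325, and 413 against 416, 470, and 445 (log2FC 0.30, limma adjusted p = 0.018). The library kit keeps strand, but whether the counting used it is not given in the sources used here. Reads that hit more than 1 gene were left out, so without strand the reads in the shared bases would not have been counted for Pln.

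Storage in the lumen depends on calsequestrin. Casq2 encodes the cardiac form and Casq1 the form of fast skeletal muscle. Casq1 lies on chromosome 1 (minus strand, positions 172209894 to 172219868) and stood at 4, 5, and 10 (LNA Control) and at 22, 14, and 21 (LNA Malat1). The groups did not overlap, and the values came from 21 recovered reads in the 3 LNA Control libraries and 60 in the 3 LNA Malat1 libraries. The mean was 6.33 ± 3.21 (SD, n = 3) against 17.8 ± 5.30 (SD, n = 2), for a log2FC of 1.51 (SE 0.36, 95% interval 0.73 to 2.28, limma adjusted p = 0.0076). With LNA Malat1 replicates 1 and 3 as 1 sample it was 1.41 (limma adjusted p = 0.048). Without LNA Malat1 replicate 1 it was 1.39 and narrowly missed the test (limma adjusted p = 0.051), and it also missed a test against a 1.5-fold change itself (limma adjusted p = 0.32). Genes at low levels were shifted upward in general in LNA Malat1. Among those averaging 10 to below 20, where Casq1 lies, the median log2 fold change was 0.32 and 18.5% were called higher. An antisense gene, Gm17224, shares 8.0% of the exonic bases of Casq1 and had 0 to 3 normalized counts per library. Of the skeletal muscle markers, 3 of 7 genes were found. Their summed normalized count was 35 to 39 per library in LNA Control and 87 to 95 in LNA Malat1. Tnnt3 (a fast troponin) and Ckm (muscle creatine kinase) were called higher, Ckm at only 3, 0, and 1 against 11, 11, and 9. Ckm averaged 1.33 in LNA Control and reached the level tested only through LNA Malat1, so its call is not independent of that filter. Acta1 did not rise, with 13, 15, and 16 against 13, 15, and 10 (log2FC -0.21, limma adjusted p = 0.6). The part of these markers in the rise of Casq1 was not tested.

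Casq2 was at the limit of detection. Its normalized counts were 0, 1, and 0 with LNA Control and 3, 2, and 2 with LNA Malat1, from 1 and 7 recovered reads. The ratio of the read rates was 6.6, with a 95% interval of 0.85 to 299 that covers counting error only, and the gene was below the level tested. Casq1 and Casq2 together came to 2.05 to 5.13 normalized counts per kilobase of exon in LNA Control and 7.91 to 12.4 in LNA Malat1, far below the pump in either group.

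The promoters of the members that passed the test are shown where RefSeq's table of GRCm38.p6 held them, as the 250 bases upstream of the transcription start, 5′ to 3′ on the gene's strand. They are printed because these members differed between the groups. Of the 10 genes, 7 were matched. Capitals mark matches on either strand to motifs of general or cardiac promoters. They are the GC box, spelled GGGCGG, which Sp proteins bind. They are also the TATA box, searched as the letters TATAAA, and the site of the GATA factors, for which AGATAA was used. The last is the E-box, written CANNTG with any base at N, which basic helix-loop-helix factors bind. The sites of TEAD factors (M-CAT, searched as CATTCC), MEF2, and serum response factor (CArG) were looked for as well. The window of Casq1 is chr1:172219896-172220145 on the minus strand and that of Pln is chr10:53337436-53337685 on the plus strand.

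Casq1: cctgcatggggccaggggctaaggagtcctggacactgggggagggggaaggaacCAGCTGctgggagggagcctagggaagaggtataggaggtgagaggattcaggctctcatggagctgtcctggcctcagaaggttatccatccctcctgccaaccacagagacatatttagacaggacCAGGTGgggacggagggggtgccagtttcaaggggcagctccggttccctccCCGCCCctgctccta

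Pln: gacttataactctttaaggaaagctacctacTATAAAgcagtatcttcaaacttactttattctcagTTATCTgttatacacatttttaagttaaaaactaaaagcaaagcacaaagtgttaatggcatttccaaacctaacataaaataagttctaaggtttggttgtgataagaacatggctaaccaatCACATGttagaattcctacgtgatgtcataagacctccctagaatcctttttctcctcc

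The window of Casq1, with 61.6% G and C, held a GC box from -15 to -10 and E-boxes from -195 to -190 and from -67 to -62, counted from the start. That of Pln, with 32.8% G and C, held TATAAA from -219 to -214, a GATA match from -183 to -178, and an E-box from -59 to -54. The windows thus shared only the E-box among the motifs searched. Over the 7 members matched, 6 held an E-box (66.22% of all 32851 windows of this length did), 3 a GC box (32.74%), 2 a GATA match (9.99%), 1 TATAAA (12.37%), and 1, that of Casq2, a match to the MEF2 consensus (2.92%). No member's window held the M-CAT or CArG letters searched, which were in 12.64% and 1.47% of all windows. Binding at these letters was not measured.

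Exchange across the cell membrane and the membrane contacts were the remaining roles. Slc8a1 encodes the sodium-calcium exchanger NCX1, which removes calcium from the cell. Its normalized counts were 1022, 1157, and 1391 with LNA Control and 955, 976, and 1055 with LNA Malat1. The groups overlapped, with LNA Malat1 replicate 3 above LNA Control replicate 1, and the LNA Control libraries were widely spread. The log2 fold change was -0.25 (SE 0.09, 95% interval -0.44 to -0.05, limma adjusted p = 0.058). Without LNA Control replicate 1 it was -0.35 and passed the test (limma adjusted p = 0.00085), and without LNA Control replicate 3 it was -0.13 (limma adjusted p = 0.14). Slc8a1 also passed with the replicate number as a block in the fit (log2FC -0.25, limma adjusted p = 0.009). It passed as well with median-of-ratios scaling (log2FC -0.27, limma adjusted p = 0.035) and, barely, with voom weights (-0.25, limma adjusted p = 0.049).

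Jph2 encodes junctophilin 2, which ties the store to the cell membrane where the calcium current enters. It stood at 265, 264, and 256 (LNA Control) and at 296, 265, and 306 (LNA Malat1). The LNA Control libraries were close together, and LNA Malat1 replicate 2 sat level with them while the other two were above. The log2 fold change was 0.14 (SE 0.07, 95% interval -0.01 to 0.29, limma adjusted p = 0.14), the only estimate above 0 beside that of Casq1. With quantile normalization it was 0.20 and passed the test (limma adjusted p = 0.048).

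Several members set the LNA Control libraries in the same order. Slc8a1, Itpr2, Ryr2, Pln, and Casq1 were each lowest in replicate 1 and highest in replicate 3, and Atp2a2, Itpr1, and Jph2 were lowest in replicate 3. The coefficient of variation among the LNA Control libraries was 15.7% for Slc8a1 and 13.9% for Itpr2, against 5.3% and 8.02% in LNA Malat1. It was 2.72% for Itpr1 and 3.05% for Pln, the 2 genes that were lower.

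Levels can be set against each other only per length of exon. On that scale the order in LNA Control was Atp2a2 (483 normalized counts per kilobase of exon), Pln (209), Itpr1 (142), Ryr2 (86.8), Slc8a1 (63.3), Jph2 (61.5), Itpr2 (19.0), Casq1 (3.25), and Casq2 (0.122). The ranges of Slc8a1 and Jph2 overlapped in LNA Control, so their order is not set there, while in LNA Malat1 Jph2 (62.3 to 71.9) lay above Slc8a1 (50.8 to 56.1) in every library. All other neighbours in the order were separate in both groups. The cardiac calsequestrin gene was the least abundant. The place of Pln depends on the counting. If strand was not used, its reads came only from the 974 of its 2759 exonic bases that no other gene shares. Per kilobase of unshared exon Pln stood at 578.0 to 612.9 in LNA Control and 485.6 to 511.3 in LNA Malat1, above Atp2a2 at 439.1 to 518.3 and 422.6 to 441.6, so which of the pump gene and its brake was the more abundant is not set.

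**Figure D3:**
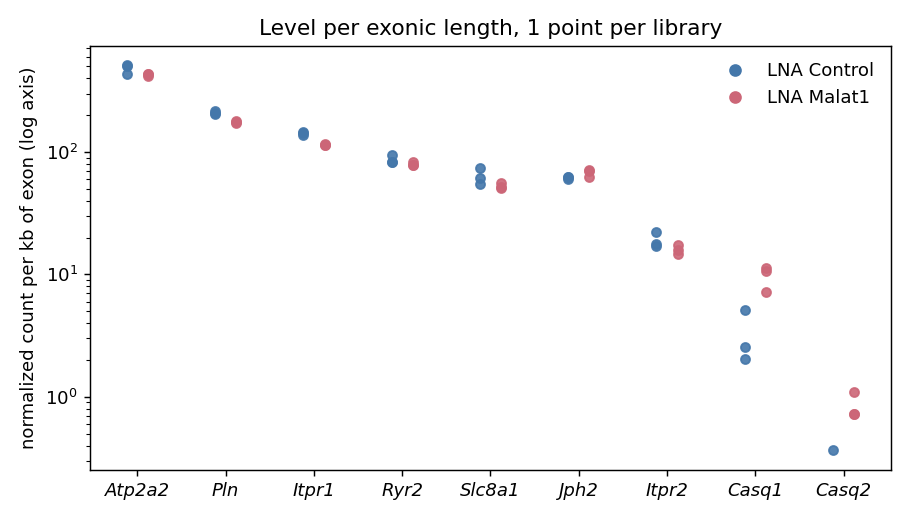
Normalized count per kilobase of exon (logarithmic axis) of the 9 genes, with 1 point per library and libraries at 0 left out, which are LNA Control replicates 1 and 3 for Casq2. Genes are ordered by their LNA Control mean, from 483 for Atp2a2 to 0.122 for Casq2, and Jph2 and Slc8a1 overlap in LNA Control.

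Each member belongs to a family of related genes, and its share of the family's RNA, per kilobase, was compared. Ryr2 made up 99.2% to 99.3% of the ryanodine receptor RNA in LNA Control and 98.2% to 98.7% in LNA Malat1. Atp2a2 made up 97.7% to 98.4% of the SERCA RNA over all 6 libraries, and Jph2 93.4% to 96.7% of the junctophilin RNA, without Jph1, which was not analysed here. Slc8a1 made up 98.2% to 98.8% of the exchanger RNA in LNA Control and 94.0% to 95.5% in LNA Malat1. In each of these families the listed gene thus held most of the RNA in every library. Counts per gene do not tell its transcript forms apart. In the SERCA family the rest was mostly Atp2a3, with 1.15% to 2.09%. Of the calsequestrins, both listed, the skeletal form Casq1 held 87.5% to 100% over all 6 libraries, at few reads. Ryr1, the skeletal ryanodine receptor, stood at 10, 12, and 11 (LNA Control) and at 28, 21, and 22 (LNA Malat1) (log2FC 1.03, SE 0.25, limma adjusted p = 0.008). Slc8a2, an exchanger best known from brain, had 3, 3, and 5 against 16, 11, and 11 (log2FC 1.56, SE 0.36, limma adjusted p = 0.007). Both were called higher, and both, like Casq1, missed the test without LNA Malat1 replicate 1 (limma adjusted p = 0.054 and 0.052). Ryr1 also missed it with quantile normalization (log2FC 0.68, limma adjusted p = 0.059). Among genes averaging 5 to below 10, the level of Slc8a2, 16.1% were called higher. Slc8a2 averaged 3.67 in LNA Control, so it reached the average of 5 needed for the test only through LNA Malat1. Its call is therefore not independent of that filter, and the 16.1% includes genes admitted in this way. Atp2a1, the skeletal SERCA, was below the level tested with 0, 1, and 3 against 8, 8, and 4, from 4 and 20 recovered reads (ratio 4.7, 95% interval 1.6 to 19.1, counting error only).

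Of the families compared, the inositol trisphosphate receptors differed most in makeup between the groups. Itpr3, the type 3 receptor, is not among the 10 genes. It stood at 956, 970, and 839 (LNA Control) and at 433, 421, and 429 (LNA Malat1), with a wide gap between the groups. Its log2 fold change was -1.10 (SE 0.06, 95% interval -1.24 to -0.97, limma adjusted p = 2.3e-07), and with each library left out it lay between -1.17 and -1.06. Per kilobase, the 3 receptor genes together came to 265.8, 270.9, and 252.9 with LNA Control and 176.6, 178.5, and 178.9 with LNA Malat1. Itpr1 provided 53.7% to 54.5% of that in LNA Control and 63.7% to 64.9% in LNA Malat1, although its own level was lower, and the share of Itpr3 was 36.8% to 39.9% against 26.1% to 27.2%. Itpr2 provided 6.46% to 8.71% against 8.38% to 9.70%.

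**Figure D4:**
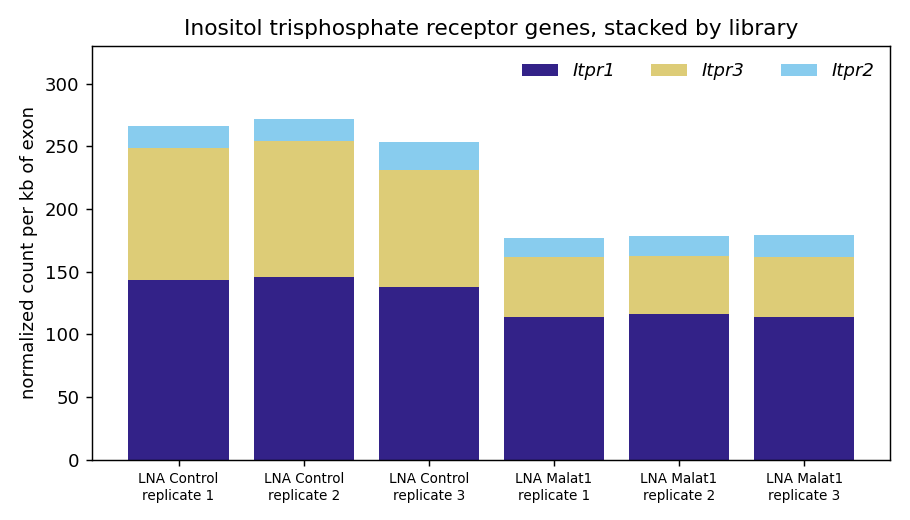
Normalized count per kilobase of exon of Itpr1, Itpr3, and Itpr2, stacked for each of the 6 libraries. The stacks of LNA Control reach 252.9 to 270.9 and those of LNA Malat1 176.6 to 178.9, with the narrower Itpr3 band in LNA Malat1.

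Ratios of members within a library do not depend on its scaling factor. They were compared with a two-sided exact permutation test, which with 3 against 3 libraries cannot give a p under 0.1. The log2 ratio of Pln to Atp2a2, the brake to the pump, was -2.45, -2.44, and -2.14 with LNA Control and -2.41, -2.44, and -2.42 with LNA Malat1, a difference of -0.08 (exact permutation p = 1.0). It overlapped between the groups, so the lower Pln was not accompanied by a separate ratio to the pump. The differences for Ryr2 to Atp2a2 (0.04, exact permutation p = 0.7), Slc8a1 to Atp2a2 (-0.08, exact permutation p = 0.8), and Itpr2 to Itpr1 (0.07, exact permutation p = 0.6) were of overlapping groups as well. Without LNA Control replicate 3 the differences to Atp2a2 were 0.02 for Pln, 0.18 for Ryr2, and 0.12 for Slc8a1, and that of Itpr2 to Itpr1 was 0.20. Without LNA Control replicate 1 they were -0.13, -0.02, -0.22, and 0.00 in the same order. No direction can be read from these 4 ratios. The ratio of Jph2 to Ryr2 was the one planned ratio that did not overlap. It was -3.17, -3.18, and -3.40 with LNA Control and -2.91, -3.08, and -2.96 with LNA Malat1, 0.26 higher (exact permutation p = 0.1, the smallest possible). The ratio of Itpr3 to Itpr1 was chosen after its values were seen. It was -1.45, -1.46, and -1.59 against -2.26, -2.33, and -2.28, a difference of -0.79 (exact permutation p = 0.1). The ratio of Trdn, which anchors calsequestrin to the ryanodine receptor, to Ryr2 was likewise chosen after its values were seen. It overlapped between the groups, with -2.24, -1.68, and -1.54 against -1.51, -1.50, and -1.56 (difference 0.30, exact permutation p = 0.2), and without LNA Control replicate 1 the difference was 0.09. Benjamini-Hochberg adjustment over these 7 ratios raises the smallest p to 0.35.

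Around the 10 genes, a wider list of 85 genes of calcium handling was looked up, of which 77 were found and 68 tested. In it 2 genes were called higher, Ryr1 and Slc8a2, and 5 were called lower, Itpr3, Stim2, Plcg1, Plcb1, and Ppp3cc (8.00% and 2.92% of all genes). Of these, Slc8a2 reached the level tested only through its LNA Malat1 libraries. At the adjusted p alone 5 were higher and 19 lower (14.3% and 14.0% of all genes). The median log2 fold change of the 68 was -0.06, beside 0.02 for all genes. This background varied with level. Genes averaging 200 to below 500 had a median of -0.05, and 22.7% of them were lower at the adjusted p alone. For genes averaging 5 to below 10 these values were 0.43 and 0.737%. Of all 15650 genes tested, 7388 had an estimate below 0. The same shares of all genes stand behind the counts of each group that follows. Members named below at the adjusted p alone were picked as examples after their values were seen.

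Genes that feed the inositol trisphosphate receptors include the phospholipases C, which make inositol trisphosphate. Of 13 genes in this group, all tested, 2 were called lower, 4 were lower and 0 higher at the adjusted p alone, 7 of 13 had estimates below 0, and the median log2 fold change was -0.07. Plcg1, the phospholipase that answers tyrosine kinase receptors, stood at 1014, 933, and 864 (LNA Control) and at 564, 590, and 570 (LNA Malat1) (log2FC -0.70, SE 0.06, limma adjusted p = 6e-06). Plcb1, which answers G protein-coupled receptors, had 116, 128, and 154 against 89, 81, and 82 (log2FC -0.64, SE 0.11, limma adjusted p = 0.0012). Without LNA Control replicate 3 the estimate for Plcb1 was -0.53, under 1.5-fold. Both genes were separate between the groups in all libraries. Plcb4, for a log2FC of -0.40 (limma adjusted p = 0.0037), and Mrvi1, whose protein holds back the type 1 receptor (-0.53, limma adjusted p = 0.00095), were lower at the adjusted p alone. The related phospholipase Plcb3 did not pass (0.12, limma adjusted p = 0.1).

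Partners of the release channel and of the membrane contact numbered 18, of which 14 were tested. At the adjusted p alone 4 were lower. Of the 14 estimates, 12 lay below 0 (7388 of all 15650 genes tested did), with a median log2 fold change of -0.13. That share of all genes is over all levels. Most of the 14 averaged 200 or more, where the medians of all genes by level were -0.05 to -0.04. At an unadjusted p of at most 0.05, 7 were lower (19.2% of all genes). The 4 were Asph, whose locus also encodes junctin, a partner of the channel in the store membrane (log2FC -0.24, limma adjusted p = 0.0044), Sri, the channel-binding protein sorcin (-0.21, limma adjusted p = 0.0085), and the kinase genes Camk2d (-0.27, limma adjusted p = 0.005) and Camk2g (-0.21, limma adjusted p = 0.013). Camk2d, the chief cardiac form of the calcium and calmodulin kinase, stood at 1554, 1651, and 1796 (LNA Control) and at 1333, 1400, and 1395 (LNA Malat1). Trdn stood at 507, 748, and 929 (LNA Control) and at 784, 792, and 810 (LNA Malat1). Its LNA Control libraries spanned the whole LNA Malat1 range (log2FC 0.17, limma adjusted p = 0.43).

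Of the pump family and its regulators, 5 of 12 genes were tested, and 1 was higher and 1 lower at an unadjusted p of at most 0.05, neither of which passed the adjustment. The one that was higher, Ppp1r3a, which brings a phosphatase to the store and to glycogen, stood at 1328, 2021, and 2297 (LNA Control) and at 2281, 2376, and 2220 (LNA Malat1), with LNA Control replicate 1 far below the rest (log2FC 0.32, limma adjusted p = 0.12). Atp2a3, the pump of non-muscle cells, had 51, 41, and 49 against 27, 28, and 42 (log2FC -0.55, limma adjusted p = 0.055). Luminal calcium binding proteins and counter-ion channels had 9 of 10 genes tested, with 1 higher and 2 lower at the adjusted p alone. Srl, whose protein sarcalumenin binds calcium in the lumen, was higher (187, 198, and 199 against 242, 253, and 235, log2FC 0.32, limma adjusted p = 0.0035). Sdf4 and Rcn3, for calcium binding proteins of the secretory pathway, were lower (log2FC -0.27 and -0.19, limma adjusted p = 0.0044 and 0.031). Calr, for calreticulin, did not pass (-0.09, limma adjusted p = 0.35).

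Of the genes for calcium entry after the store empties, all 6 were tested. Stim2, a sensor of calcium in the store, was called lower, with normalized counts of 394, 394, and 377 with LNA Control and 226, 259, and 244 with LNA Malat1 (log2FC -0.68, SE 0.06, limma adjusted p = 1.1e-05). Its relative Stim1, the main sensor, had 348, 325, and 313 against 312, 310, and 337 (log2FC -0.04, 95% interval -0.18 to 0.10, limma adjusted p = 0.68). The channel gene Orai2 was higher at the adjusted p alone (log2FC 0.36, limma adjusted p = 0.05), and Orai1 and Orai3 did not pass (0.18 and 0.22, limma adjusted p = 0.33 and 0.18). Extrusion through the cell membrane had 3 of 6 genes tested, with Slc8a2 higher, as above, and the calcium pump gene Atp2b1 lower at the adjusted p alone (log2FC -0.18, limma adjusted p = 0.038).

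Mitochondrial calcium genes were all tested, 8 of 8. Of these, 1 was lower at the adjusted p alone, Micu2, a gatekeeper of the mitochondrial uniporter (469, 483, and 450 against 360, 383, and 376, log2FC -0.32, limma adjusted p = 0.00097), while the pore gene Mcu had a log2FC of -0.15 (limma adjusted p = 0.13). Mcub, at few reads, had the lowest estimate of the wider list and narrowly missed the test. It stood at 14, 5, and 13 against 4, 4, and 3 (log2FC -1.22, limma adjusted p = 0.051). Calcineurin, the calcium-driven phosphatase, and its NFAT targets had 9 of 11 genes tested, 1 called lower, and 5 lower and 1 higher at the adjusted p alone, with a median log2 fold change of -0.26. The called gene was Ppp3cc, a catalytic subunit at low level, with 33, 34, and 38 against 24, 21, and 22 (log2FC -0.63, SE 0.19, limma adjusted p = 0.025). It no longer met the rule with any of 5 single libraries left out (limma adjusted p up to 0.075, or a fold change under 1.5). Of its relatives, Ppp3ca was lower at the adjusted p alone (-0.41, limma adjusted p = 0.00012) and Ppp3cb was not (-0.04, limma adjusted p = 0.59). The calcineurin regulators Rcan1, Rcan2, and Rcan3 were all lower at the adjusted p alone. Rcan1, whose shorter transcript is a standard readout of calcineurin and NFAT activity, stood at 426, 433, and 402 (LNA Control) and at 291, 290, and 291 (LNA Malat1) (log2FC -0.53, limma adjusted p = 2.5e-05), counted over all its transcripts. Nfatc1 was higher at the adjusted p alone (0.45, limma adjusted p = 0.0092).

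**Figure D5:**
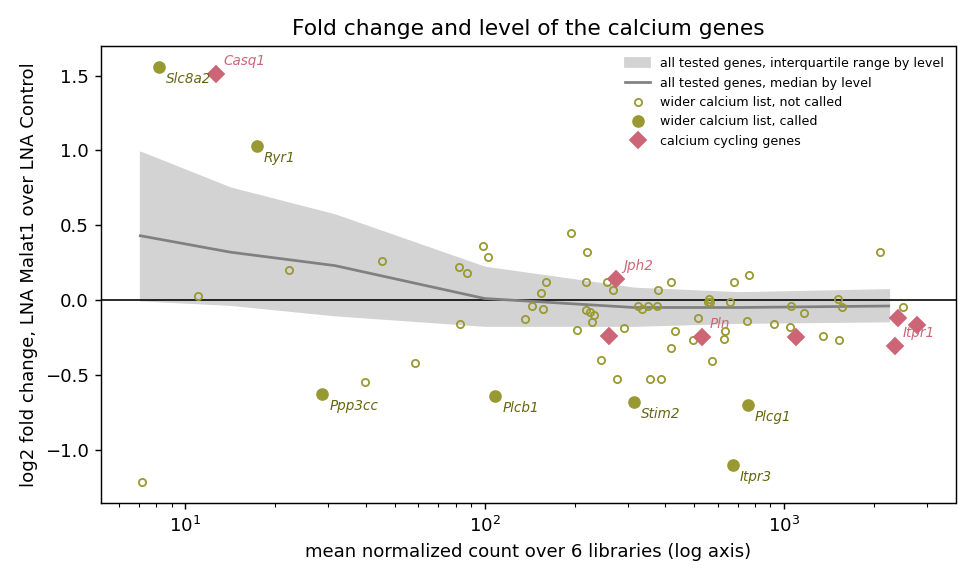
Log2 fold change of LNA Malat1 over LNA Control against the mean normalized count over the 6 libraries (logarithmic axis) for the 8 tested calcium cycling genes (diamonds) and the 68 tested genes of the wider list (circles, filled where called). The grey line is the median and the band the interquartile range of all tested genes by level, with a median from 0.43 at a mean of 5 to below 10 down to -0.04 at 1000 and above. The 3 genes called higher, Slc8a2, Casq1, and Ryr1, lie at means of 8.17, 12.7, and 17.3.

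Markers of other cell types were summed in the same way. Ventricular markers, 3 of 4 found, came to 62 to 71 normalized counts per library in LNA Control and 97 to 119 in LNA Malat1, mostly Myl2, which was called higher. The other ventricular genes, Myh7 and Myl3, had at most 4. Fibroblast markers, 4 of 6 found, came to 4329 to 5079 against 3845 to 4017, nearly all from the collagen genes Col1a1 and Col3a1, while Col1a2 was at 0 or 1. Smooth muscle markers, 4 of 4 found, came to 1512 to 1678 against 1553 to 1701. Endothelial markers, 3 of 5 found, came to 22 to 31 against 36 to 37, and leukocyte markers, 2 of 4 found, to 14 to 25 against 36 to 47. The sums of the skeletal muscle, ventricular, endothelial, and leukocyte lists, all at low levels, lay higher in every LNA Malat1 library than in any LNA Control library, as did that of the atrial list by a smaller margin. The fibroblast sum lay lower in every LNA Malat1 library than in any LNA Control library, and Col3a1 was lower at the adjusted p alone (log2FC -0.33, limma adjusted p = 0.0014). Their part in the differences of the calcium genes was not tested.

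The genes whose values over the 6 libraries were most like those of Casq1, the one called member, were C920021L13Rik (Pearson r = 0.9981 on log2 values), Tpst2 (0.998), and Fcho2 (0.9929). These are descriptions over 6 libraries in 2 groups, so that a shared difference between the groups is enough for a high value.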

How the data were processed

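By the paper's methods, reads were trimmed (Trimmomatic 0.39), aligned to mm10 with Ensembl release 101 (STAR 2.7.7a), and summed per gene over exons (featureCounts 1.6.5), leaving out reads that hit more than 1 gene or place. The authors then tested them with DESeq2 1.30.0. The deposited values are a score here and not raw counts, since the authors scaled each library's counts by a factor and rounded them to integers. Tests for raw counts were therefore not run.

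On these values limma 3.58.1 (R 4.3.3) was fitted to log2 with a pseudocount of 1 (lmFit, eBayes with trend, two-sided) for the 15650 genes averaging 5 or more, adjusted by Benjamini-Hochberg. Fold changes on this scale understate those of low genes. Libraries held 4512253 to 5592464 recovered reads. Positions are those of the authors' table, and exonic lengths and overlaps came from GENCODE M21. Exact tests and intervals used scipy 1.17.1, and intervals cover counting error only.

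Groups came from the sample labels. The 10 genes, the wider list, and the markers were chosen with earlier results of these data known. Named genes are Malat1, the members, called genes of the wider list, genes overlapping a member, and the 3 genes most like the called member, and others were picked after their values were seen. Alternatives were the replicate block, pseudocounts of 0.1 and 5, 3 scalings, other filters (none, or averages of 50 and up), 2-fold and a test against 1.5-fold, voom weights on recovered reads, the closest libraries as 1 sample, and each library left out. Ratios with Sln and of Casq1 to Casq2 were not run.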

Additional observations from a re-analysis of the deposited data

How the results depend on the processing

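Itpr1 and Pln stayed lower at an adjusted p within 0.05, and Casq1 higher, in limma fits under each alternative that tested them without a fold change under test, apart from Casq1 without LNA Malat1 replicate 1. Itpr1 lay between -0.33 and -0.27 and Pln between -0.27 and -0.18 (log2 fold change), and no gene named in the list changed direction. The number of members lower at the adjusted p alone was 2, but 5 with the replicate block (also Slc8a1, limma adjusted p = 0.009, Itpr2, 0.019, and Atp2a2, 0.039) and 4 with median-of-ratios scaling (also Slc8a1 and Itpr2). With voom weights that number was 3 (also Slc8a1, limma adjusted p = 0.049). Replicate numbers were not taken to pair the libraries in the main test. Deviations of same-numbered libraries correlated only at 0.086, 0.182, and 0.083 over 10490 genes. Each was still the highest for its library, so pairing is not excluded. The block also gave 1297 genes called higher and 442 called lower. With quantile normalization, 2 members were higher at the adjusted p alone (Casq1 and Jph2), 1 gene of the wider list was called higher, and 774 genes of all were called higher and 695 lower, a share of calls that were higher of 52.7% instead of 73.3%. With a mean of at least 50, which leaves out Casq1, 0 members were called higher or passed the adjusted p higher, and 0 genes of the wider list were called higher and 3 were higher at the adjusted p alone, with 317 of all genes called higher (47.6% of calls). Without a filter 4 genes of the wider list were called higher. At a fold change of at least 2, 742 genes were called higher and 99 lower, and 1 gene of the wider list (Itpr3) was lower. A test against a 1.5-fold change gave 192 higher and 99 lower, 0 members and 0 genes of the wider list higher, and 1 of that list lower. Merging LNA Malat1 replicates 1 and 3 gave 831 genes called higher.

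With each library left out in turn, members called higher numbered 0 to 1, members higher at the adjusted p alone 0 to 1, members lower 2 to 4, genes of the wider list called higher 0 to 2 and called lower 4 to 6, those higher at the adjusted p alone 2 to 8 and lower 15 to 20, and all genes called higher 810 to 1582 and lower 406 to 475. The median log2 fold change of the members lay between -0.21 and -0.13, the latter without LNA Control replicate 3. The smallest counts of higher genes came without LNA Malat1 replicate 1. Depth limits Casq1, Casq2, and the skeletal relatives, at under 30 normalized counts in every library.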
